A study of Mus musculus with 9 samples.

Results

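Solute carriers are membrane proteins, numbered by family, that move nutrients, ions, metals and nucleotides across the plasma membrane and the membranes of organelles. The genes described here are the 87 solute carriers that were well expressed in mouse blood, out of 20926 gene symbols in the file. They were chosen as symbols of the form Slc plus a number with a mean deposited FPKM (fragment counts scaled to transcript length and to the library's mapped total) of at least 5 over all 9 libraries. The file holds 374 such symbols, of which 94 reached that level and 280 stayed under it. The 280 include 94 that were listed at 0 in every library. A set of 8 iron, heme, glucose and red cell carriers was left out by name (Slc4a1, Slc25a37, Slc25a38, Slc11a1, Slc11a2, Slc40a1, Slc2a1 and Slc2a3), of which 7 had reached the threshold. The mean FPKM therefore chose the members, and their levels are given as a description without a test.

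Blood RNA of male DBA/1 mice, labelled as 7 weeks old, was sequenced in 3 groups of 3 libraries. The paper gives that age for the division into groups, ahead of immunisation and irradiation. The arthritic mice were therefore older than the label when their blood was taken. Ctrl mice were neither immunised nor irradiated. CIA mice carried collagen-induced arthritis, a joint inflammation raised by injecting chick type II collagen with adjuvant, and were not irradiated. CIA+THz mice carried the same arthritis and had a swollen ankle irradiated at 0.1 THz for 30 min a day over 14 days under isoflurane, so irradiation and anaesthesia cannot be told apart from these groups. The labels number the libraries 1 to 3 in each group without naming the animals, so p-values measure the spread between these samples.

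The libraries are labelled as blood leukocytes, but Alas2, the first enzyme of heme synthesis in red cell precursors, took 11.4 to 16.7% of the summed FPKM of each library. The relative depth, read from the steps between low FPKM values, ran from 1.00 to 1.10 for Ctrl, from 1.01 to 1.28 for CIA and from 1.35 to 1.87 for CIA+THz, set against Ctrl 1 (the absolute depth is unknown). FPKM were divided by a median-of-ratios factor per library, between 0.847 and 1.24, before groups were compared, and are called rescaled FPKM. That step lowered the CIA+THz libraries by 0.28 on the log2 scale against CIA and by 0.31 against Ctrl, and log2 fold changes of CIA+THz from the deposited FPKM are given beside those from rescaled FPKM. In bulk blood, fewer cells of a type and less RNA per cell cannot be told apart.

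Solute carriers feed blood cells in several ways. Plasma membrane carriers bring in amino acids, sugars, nucleosides and metals and export lactate. Mitochondrial carriers (Slc25) exchange nucleotides, phosphate, coenzymes and glutathione across the inner membrane, and red cell precursors use them for heme synthesis. Slc35 carriers load the Golgi with nucleotide sugars for glycosylation, and several lysosomal carriers (in Slc15, Slc29, Slc36 and Slc38) serve amino acid sensing and nucleic acid recycling.

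A few mitochondrial and heme carriers held most of the summed FPKM of the members. Slc25a39, which imports glutathione into mitochondria, had a mean deposited FPKM of 1525, Slc25a51, the mitochondrial NAD+ carrier, 610, and Slc48a1, which moves heme out of endosomes and lysosomes, 435. Those 3 genes held 58.5% of the summed FPKM of all 87 members, and the 19 mitochondrial carriers held 55.7% of it. The 12 metal transporters held 12.3%, with Slc48a1 the highest and the zinc transporter Slc30a9 next at 23.4. The member median was 11.4 FPKM. Only 4 members were at or above 100 FPKM, 31 were at or above 20 and 36 were under 10.

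Outside those classes the highest members were more even. Slc44a2 and Slc44a1, choline transporter-like proteins, had means of 122 and 73.6 FPKM, and Slc6a4, the serotonin transporter of platelets, 82.5, so the 10 organic ion, vitamin, peptide and lipid transporters held 8.70% of the members' FPKM. The 9 sugar, monocarboxylate and phosphate transporters held 6.72%, led by the glucose transporter family member Slc2a6 at 81.1 and the lactate exporter Slc16a3 at 69.2. Among the 12 amino acid transporters (6.37%), Slc7a5, the light chain of the large neutral amino acid exchanger, reached 63.4 and Slc38a2, a sodium-coupled neutral amino acid transporter, 35.7, while Slc3a2, the heavy chain that partners Slc7a5, had 15.9. The 13 nucleoside and nucleotide-sugar transporters (5.46%) were led by Slc35a5 at 63.9 and by Slc28a2, a concentrative nucleoside transporter, at 28.8. The 10 ion exchangers and cotransporters held 3.62%, and among them Slc24a3, a sodium calcium potassium exchanger, had 33.9. A further 2 members, Slc9a3r1 at 39.9 and Slc9a3r2 at 9.32, are scaffold proteins that bind sodium proton exchangers and carry no solute.

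**Figure D1:**
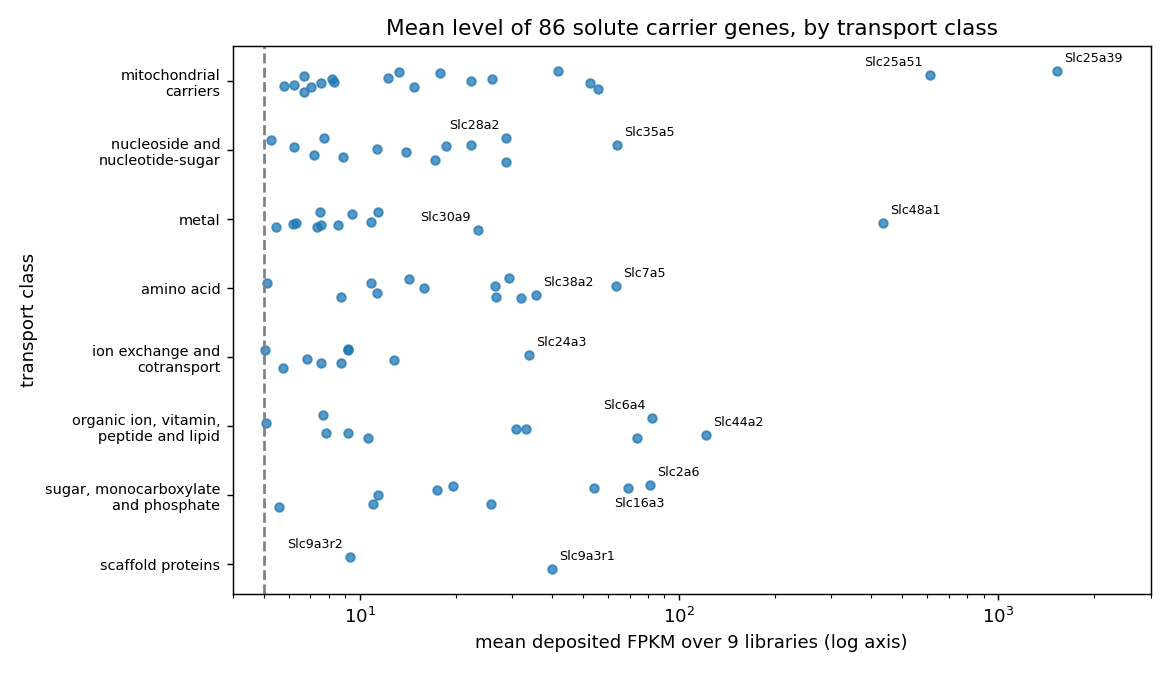
Mean deposited FPKM over the 9 libraries (horizontal log axis) of 86 solute carriers, in rows by transport class, with leading members of each class named and the threshold of 5 FPKM dashed. Slc25a39 (1525), Slc25a51 (610) and Slc48a1 (435) stand apart from all the others.

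The threshold cut through a dense range of levels. Just inside it were Slc9a9 (5.05), Slc18a2 (5.09), Slc7a6 (5.12), Slc35b2 (5.28) and Slc31a2 (5.46), and just outside it Slc39a11 (4.76), Slc35a2 (4.74), Slc6a9 (4.73), Slc25a30 (4.65) and Slc30a4 (4.53). In 75 members all 3 group means of deposited FPKM were at or above 5, and in 12 at least 1 group mean was under it. Of those 12, Slc8b1, Slc39a3 and Slc7a6 are described below as differing between groups, and each entered through the groups where it was high. No member was at 0 in any library, and all 87 passed the filter on low values. The coefficient of variation within a group had a median over the members of 16.1% for Ctrl, 15.2% for CIA and 12.8% for CIA+THz, beside 15.1, 14.5 and 10.4% over the 6217 genes at or above 5 FPKM.

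Across the 3 groups, limma's moderated F test put 31 of the 87 members (35.6%) under an unadjusted p of 0.05, where the share was 21.3% of all 12366 genes tested and 30.9% of the genes at or above 5 FPKM. Without CIA+THz 1 the count was 20. After Benjamini-Hochberg adjustment over all genes, 2.53% of all genes stayed under 0.05, as did 274 of the 6217 at or above 5 FPKM. Of the members, 3 did (3.45%). They were Slc38a2 (limma, adjusted p = 0.0209), Slc16a6 (limma, adjusted p = 0.0262) and Slc8b1 (limma, adjusted p = 0.0350). The Ctrl libraries of Slc8b1 averaged 4.19 deposited FPKM, under the threshold of 5, so its membership rests on the arthritic groups. Each of these 3 members was below or above Ctrl in every CIA library, and each kept an unadjusted p under 0.05 when any single library was left out. The adjusted p did not hold so well, running with 1 library left out from 0.0317 to 0.0732 for Slc38a2, from just over 0.05 to 0.0915 for Slc16a6 and from 0.0543 to 0.0908 for Slc8b1 (limma), and without the mean-variance trend it was 0.102, 0.112 and 0.104 in that order.

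Between CIA and Ctrl, 6 members passed the study's criterion of an unadjusted p under 0.05 with an absolute log2 fold change above 0.67, here in limma's test on the 6 libraries. That is 6.90% of the members, and 9.04% of all genes tested passed it. Higher in CIA were Slc8b1, Slc31a1, Slc43a2 and Slc35c2, which is 4.60% of the members beside 4.79% of all genes and likewise 4.79% of those at or above 5 FPKM. Lower were Slc16a6 and Slc38a2, 2.30% of the members beside 4.25% of all genes and 3.99% of those at or above 5 FPKM. By an unadjusted p under 0.05 alone, 12 members were higher (8.85% of all genes and 12.6% of those at or above 5 FPKM) and 5 lower (8.45 and 12.0%). No member had an adjusted p under 0.05 (the smallest was 0.0610 in limma), as did 0.154% of all genes. Without Ctrl 3, 10 members passed the criterion, and without Ctrl 1 only 1 member was lower.

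Slc8b1 (chr5:120511168-120534024, plus strand, in mm10 coordinates of GENCODE M21) encodes the exchanger that lets calcium out of mitochondria for sodium. Its rescaled FPKM were 5.72, 3.61 and 4.04 in Ctrl, 10.6, 9.0 and 11.9 in the CIA group and 6.26, 6.95 and 8.63 in CIA+THz. Every CIA library lay above every Ctrl and every CIA+THz library, and every CIA+THz library above every Ctrl library. The log2 fold change was 1.24 ± 0.23 (SE) for CIA against Ctrl (limma, adjusted p = 0.0700) and 0.71 ± 0.23 for CIA+THz against Ctrl (1.01 deposited), which also passed the criterion (limma, adjusted p = 0.183). CIA+THz against CIA gave -0.53 ± 0.18 (-0.25 deposited), with an unadjusted limma p of 0.0217 that fell short of the fold threshold. Slc8b1 became a member through the groups where it was high, so its choice was not independent of these differences.

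Slc31a1 (chr4:62360727-62391769, plus strand), the high-affinity copper importer, had 5.04, 6.89 and 5.78 in Ctrl, 11.3, 12.6 and 11.3 in the CIA group and 7.27, 6.16 and 9.79 in CIA+THz. The CIA libraries stood above all 6 others, while CIA+THz and Ctrl overlapped. The log2 fold change was 0.99 ± 0.18 for CIA against Ctrl (limma, adjusted p = 0.0677) and -0.62 ± 0.19 for CIA+THz against CIA (-0.35 deposited), which did not pass the criterion. Its annotated span overlaps that of Cdc26 on the opposite strand, and whether their exons overlap was not checked. The strand setting of the counting is not given in the sources used here, so its values are uncertain to that extent. The other copper transporter, Slc31a2, gave 0.21 ± 0.32 for CIA against Ctrl.

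The remaining higher members were an amino acid transporter and a Golgi family member. Slc43a2 (chr11:75531694-75577575), which carries large neutral amino acids, had 9.64, 8.33 and 12.9 in Ctrl, 17.5, 16.6 and 15.3 in the CIA group and 13.7, 17.0 and 13.6 in CIA+THz (CIA against Ctrl, log2 fold change 0.70 ± 0.19, limma, adjusted p = 0.152). Slc35c2 (chr2:165276554-165287869), a nucleotide-sugar transporter family member linked to fucosylation, had 13.9, 13.2 and 13.3 in Ctrl, 18.1, 24.6 and 22.8 in the CIA group and 20.4, 16.7 and 20.8 in CIA+THz (0.68 ± 0.15, limma, adjusted p = 0.0999). In both genes every CIA library and every CIA+THz library was above every Ctrl library. Leaving out 1 of 3 libraries (CIA 1, Ctrl 1 or Ctrl 2) took Slc43a2 to between 0.56 and 0.66 on the log2 scale, and leaving out CIA 2 or CIA 3 took Slc35c2 to 0.59 or 0.65, under the threshold of 0.67.

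The lower members in CIA were a monocarboxylate family member and an amino acid importer. Slc16a6 (chr11:109450855-109473598, minus strand) had 35.6, 31.7 and 31.0 in Ctrl, 16.5, 19.4 and 19.3 in the CIA group and 22.0, 24.3 and 28.5 in CIA+THz. The 3 groups did not overlap, with CIA+THz between the other two. The log2 fold change was -0.83 ± 0.13 for CIA against Ctrl (limma, adjusted p = 0.0610), and 0.43 ± 0.13 for CIA+THz against CIA, which did not reach the fold threshold on rescaled FPKM and did with deposited FPKM (0.71). The annotated span of Slc16a6 overlaps those of Amz2 and Arsg on the opposite strand. Whether their exons overlap was not checked, so its values are uncertain to that extent.

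Slc38a2 (chr15:96687392-96699730, minus strand) had 58.7, 45.9 and 43.9 in Ctrl, 29.4, 27.1 and 30.1 in the CIA group and 27.9, 27.0 and 31.0 in CIA+THz. Every arthritic library, irradiated or not, lay below every Ctrl library, and the CIA and CIA+THz libraries overlapped. The log2 fold change was -0.77 ± 0.14 for CIA against Ctrl (limma, adjusted p = 0.0700) and -0.78 ± 0.14 for CIA+THz against Ctrl (limma, adjusted p = 0.0803), but -0.01 ± 0.10 for CIA+THz against CIA (0.27 deposited). Without Ctrl 1 the first of these was -0.64 and the second -0.65, under the fold threshold, and with deposited FPKM the second was -0.47. The 2 comparisons share the Ctrl libraries. Its relative Slc38a5, another neutral amino acid transporter, had 14.8, 14.8 and 11.6 in Ctrl, 11.6, 10.2 and 9.69 in the CIA group and 7.44, 8.10 and 9.41 in CIA+THz, and Slc38a1 gave 0.26 ± 0.22 for CIA against Ctrl.

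**Figure D2:**
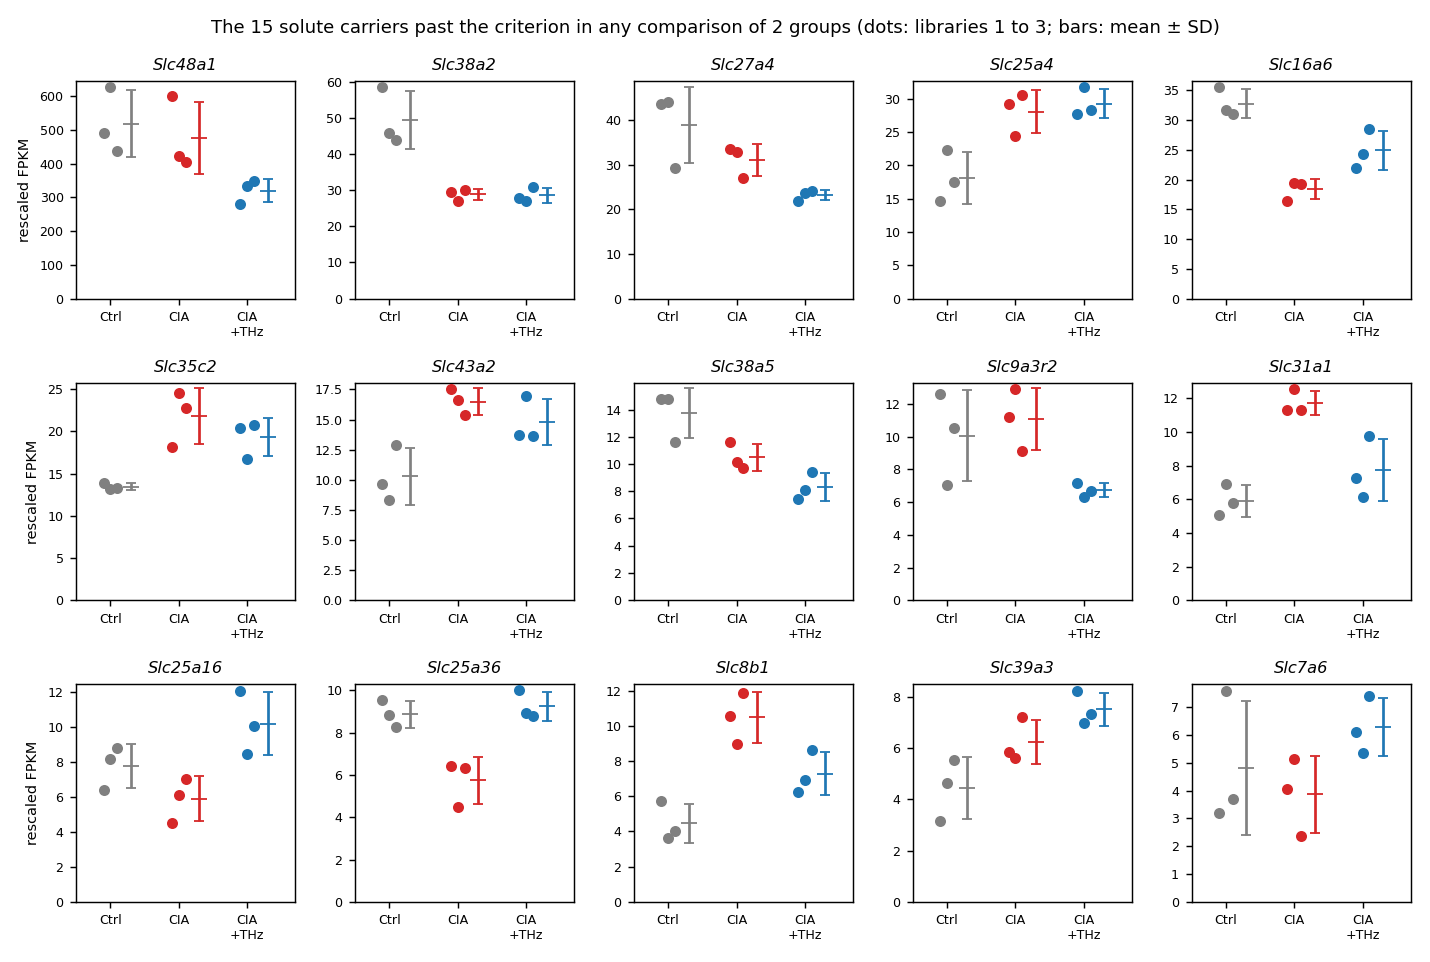
Rescaled FPKM (vertical axes, each starting at 0) of the 15 solute carriers past the criterion in any comparison, with 1 dot per library and bars for the mean ± SD of 3 libraries. Slc8b1 and Slc31a1 peak in CIA, Slc38a2 is lower in both arthritic groups, and Slc25a36 is lowest in CIA.

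By class, the CIA against Ctrl median log2 fold change ran from -0.20 in the amino acid transporters to 0.24 in the metal transporters among the classes of 9 members or more, beside 0.03 over all 87 members and -0.01 over all genes tested. Of the 12 amino acid transporters, 1 rose, 1 fell and 8 had a negative fold change. Of the 12 metal transporters, 1 rose and 8 had a positive one. None of the 19 mitochondrial carriers passed the criterion, although 3 had an unadjusted p under 0.05 upward and 1 downward. The ADP/ATP carriers Slc25a4 and Slc25a5 had log2 fold changes of 0.64 ± 0.18 and 0.41 ± 0.14 and the phosphate carrier Slc25a3 0.42 ± 0.13, with CIA libraries above all Ctrl libraries in each. None of the 10 organic ion, vitamin, peptide and lipid transporters passed, and 8 of them were negative. In all, 17 members had every CIA library above every Ctrl library and 8 had every one below, where 11.8% of all genes did so in either direction, and 15.3 and 15.2% of those at or above 5 FPKM.

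Blood cell markers moved with these comparisons. All 10 monocyte markers had a positive fold change in CIA against Ctrl (median log2 fold change 0.99), and their summed rescaled FPKM were 3183 to 3512 in Ctrl, 5457 to 6092 in the CIA group and 3724 to 3992 in CIA+THz. All 9 T cell markers tested were negative in CIA against Ctrl (median -0.35), with sums of 385 to 410, 278 to 312 and 377 to 496. Of the 7 natural killer cell markers tested 6 were negative (median -0.99), and 1 more of the list was at 0 in every library. Of the 9 erythroid markers tested 8 were negative (median -0.71), with Klf1 and Ermap lower by the criterion, and of the 8 plasma cell markers 7 were negative and 4 lower by it, with sums of 116 to 140 in Ctrl and 57.3 to 64.3 in CIA. The 10 neutrophil markers had 5 positive and 5 negative fold changes (median -0.03). By the criterion, the granule protein genes Ngp, Camp and Ltf were higher in CIA, by 3.02 to 4.86 on the log2 scale. Mmp8 of the same list was lower by it (log2 fold change -1.35). Of the 10 B cell markers 8 were positive (median 0.25), and the platelet markers had a median of 0.01. Slc8b1 and Slc31a1 were highest in the same group as the monocyte sum, and Slc25a36 and Slc16a6 lowest in the same group as the T cell sum. Of the members past the criterion in any comparison, Slc43a2, Slc35c2 and Slc9a3r2 also had their highest group mean in CIA, and Slc25a16 and Slc7a6 their lowest. How many of all genes do so was not counted. Other lists shared these groups. The median natural killer cell sum was also lowest in CIA (85.2, beside 159 in Ctrl and 136 in CIA+THz), and the median erythroid and platelet sums were also highest in CIA. The erythroid sum was nearly all Alas2, the only marker of that list with a positive fold change (log2 fold change 0.11 ± 0.76). It does not stand for the other erythroid markers, which were negative. The part of these markers in the solute carrier values was not tested.

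Between CIA+THz and CIA, 4 members (4.60%) passed the criterion, where 4.54% of all genes tested did. Slc25a16, Slc7a6 and Slc25a36 were higher in CIA+THz (3.45% of members, 2.94% of all genes and 1.22% of those at or above 5 FPKM) and Slc9a3r2 was lower (1.15% of members, 1.60 and 1.29%). None had an adjusted p under 0.05 in limma (the smallest over the members was 0.199), nor had any gene tested (0.00%), and by an unadjusted p under 0.05 alone 5 members were higher (5.89% of all genes and 6.45% of those at or above 5 FPKM) and 14 lower (7.33 and 12.2%). With deposited FPKM, 7 members passed, all higher in CIA+THz, and these held Slc25a16, Slc7a6 and Slc25a36 but not Slc9a3r2. None of the 6 members past the criterion between CIA and Ctrl passed it between CIA+THz and CIA on rescaled FPKM. Leaving out 1 library at a time gave between 1 (without CIA+THz 1) and 5 members.

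The higher members included 2 mitochondrial carriers. Slc25a36 (chr9:97074961-97111157, minus strand), which carries pyrimidine nucleotides into mitochondria, had 9.53, 8.84 and 8.26 in Ctrl, 6.41, 4.48 and 6.33 in the CIA group and 10.02, 8.94 and 8.79 in CIA+THz. Every CIA library was below every library of the other 2 groups, and these overlapped. The log2 fold change was 0.69 ± 0.18 for CIA+THz against CIA (0.97 deposited, limma, adjusted p = 0.239), -0.64 ± 0.20 for CIA against Ctrl and 0.06 ± 0.14 for CIA+THz against Ctrl (0.36 deposited). Slc25a16 (chr10:62920633-62946498, plus strand), linked to coenzyme A in mitochondria, had 6.38, 8.16 and 8.80 in Ctrl, 4.50, 6.12 and 7.04 in the CIA group and 12.1, 8.46 and 10.02 in CIA+THz. Its CIA+THz libraries were above all CIA libraries and overlapped Ctrl, with a log2 fold change of 0.79 ± 0.22 against CIA (1.06 deposited, limma, adjusted p = 0.254). The CIA and Ctrl libraries overlapped too, at -0.41 ± 0.23 for CIA against Ctrl, which did not pass the criterion (limma, adjusted p = 0.412). Without CIA+THz 1 the values were 0.64 for Slc25a36 and 0.66 for Slc25a16, without CIA 2 Slc25a36 was at 0.53 and without CIA 1 Slc25a16 was at 0.61, all under the fold threshold.

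The other members past the criterion were less steady. Slc7a6 (chr8:106168857-106198706), a light chain of the cationic and neutral amino acid exchanger, had 3.18, 7.56 and 3.68 in Ctrl, 4.07, 5.14 and 2.37 in the CIA group and 6.09, 5.37 and 7.39 in CIA+THz (CIA+THz against CIA, log2 fold change 0.75 ± 0.30, or 1.02 deposited, limma, adjusted p = 0.364). It passed the criterion in 1 of the 6 fits that each left out 1 library. Slc9a3r2 (chr17:24639286-24650327), the exchanger-binding scaffold, had 12.6, 7.07 and 10.5 in Ctrl, 11.2, 12.9 and 9.11 in the CIA group and 7.17, 6.32 and 6.69 in CIA+THz, with all CIA+THz values under all CIA values. Its log2 fold change against CIA was -0.70 ± 0.16 (limma, adjusted p = 0.213), or -0.43 with deposited FPKM, and without CIA+THz 2 or CIA 2 it was -0.66 or -0.58. The other scaffold, Slc9a3r1, gave -0.32 ± 0.09 on rescaled and -0.05 on deposited FPKM.

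The most abundant carriers were lower in CIA+THz without reaching the fold threshold. Slc25a39 had 1710, 2120 and 1419 in Ctrl, 2062, 1616 and 1458 in the CIA group and 978, 1213 and 1251 in CIA+THz, and its log2 fold change against CIA was -0.57 ± 0.18 (-0.29 with deposited FPKM). Slc25a51 had 697, 857 and 483, then 817, 595 and 660, then 376, 518 and 527 (-0.55 ± 0.18, or -0.27 deposited). In both genes the CIA+THz libraries lay below all CIA libraries, and for Slc25a39 below all Ctrl libraries too. Alas2 had 68755 to 102970 rescaled FPKM in Ctrl, 86779 to 97383 in the CIA group and 47174 to 65083 in CIA+THz, and the summed erythroid markers were 69262 to 103930, 87331 to 98052 and 47556 to 65599. Alas2 made up nearly all of that sum. Of the 9 erythroid markers tested, 6 had a negative fold change against CIA on rescaled FPKM (median -0.02) and 8 a positive one on deposited FPKM (median 0.24), so no direction is given for the list, and its part in the carriers' values was not tested.

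Among the other carriers that separated CIA+THz from CIA without reaching the fold threshold, only Slc6a4, Slc7a5 and Slc9a8 are described here. Slc6a4, the platelet serotonin transporter, had 90.5, 107 and 83.1 in Ctrl, 83.6, 92.3 and 87.2 in the CIA group and 60.5, 63.7 and 74.0 in CIA+THz (log2 fold change -0.41 ± 0.10 against CIA, -0.13 deposited). The CIA+THz libraries lay below all 6 others, and 8 of 9 platelet markers were also negative in this comparison on rescaled FPKM (median -0.41), while on deposited FPKM 3 of 9 were positive (median -0.13), with rescaled sums of 4402 to 5468 in CIA and 3682 to 4416 in CIA+THz. Slc7a5 had 64.7, 87.9 and 45.3 in Ctrl, 81.3, 73.8 and 70.4 in the CIA group and 43.4, 53.6 and 53.5 in CIA+THz (-0.59 ± 0.12 against CIA, -0.31 deposited), and its partner Slc3a2 gave -0.15 ± 0.13, or 0.12 deposited. Slc9a8, an organellar sodium proton exchanger, had 9.18, 6.49 and 7.75, then 7.19, 7.49 and 8.55, then 10.98, 10.9 and 11.1, with CIA+THz above all 6 others (0.50 ± 0.12 against CIA, 0.78 deposited). All 10 neutrophil markers had a negative fold change in CIA+THz against CIA (median -0.53, or -0.25 deposited with 1 positive, and 4 passed the criterion on rescaled FPKM) and all 9 T cell markers tested a positive one (median 0.48, or 0.76 deposited), and the part of either in these carriers was not tested.

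Class medians for CIA+THz against CIA turned sign with the scaling. On rescaled FPKM they ran from -0.25 in the organic ion, vitamin, peptide and lipid transporters to -0.02 in the ion exchangers and cotransporters, and on deposited FPKM the same 7 classes ran from 0.02 to 0.26. The scaffold pair was negative on both (-0.51 and -0.24). Over all 87 members the median was -0.10 on rescaled FPKM with 30 positive, and 0.17 on deposited FPKM with 64 positive, beside 0.03 and 0.29 over all genes tested. The CIA+THz values lay wholly under the CIA values in 17 members and wholly over them in 6, where all genes gave 10.2 and 9.38% and those at or above 5 FPKM 15.7 and 9.20%. No direction is therefore given for the members as a group.

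**Figure D3:**
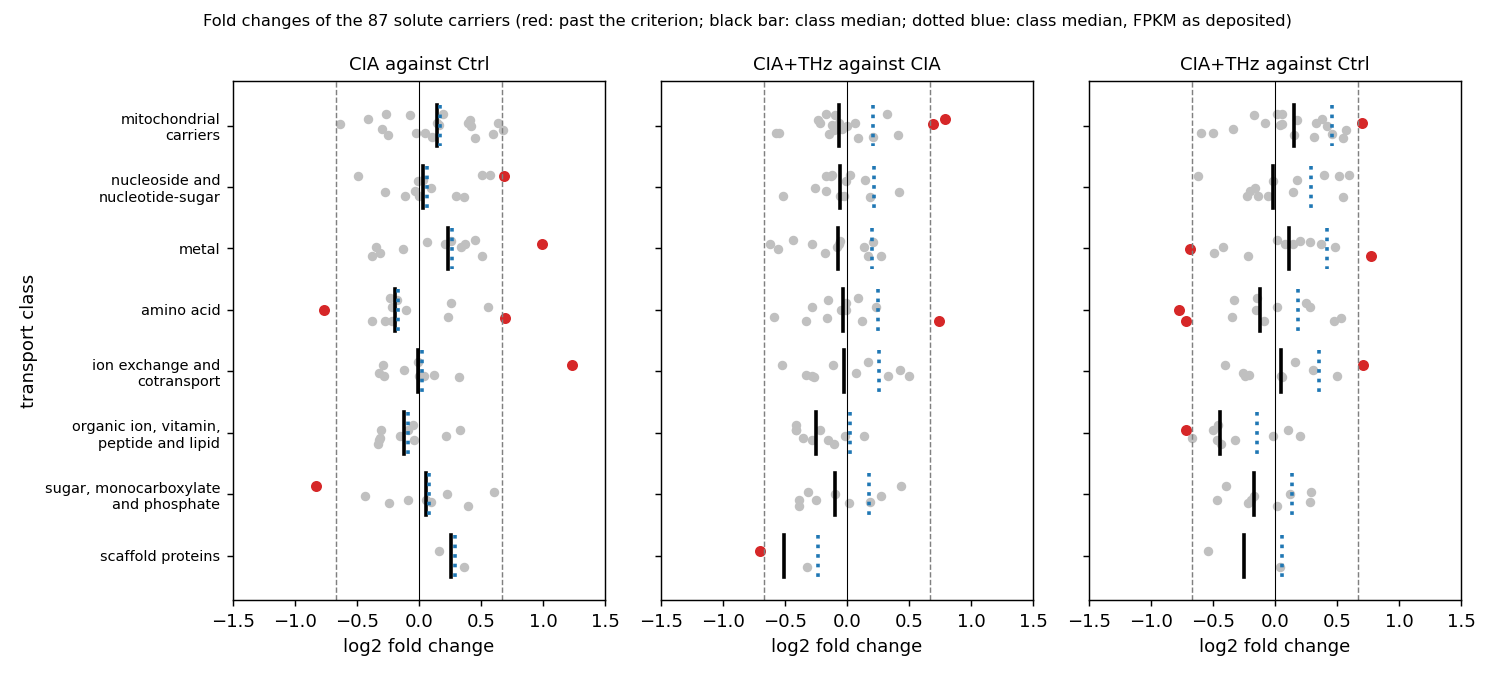
Log2 fold change (horizontal axes) of each of the 87 solute carriers by transport class in the 3 comparisons, with members past the criterion in red, the fold threshold of 0.67 dashed, class medians as black bars and the medians from deposited FPKM as dotted blue bars. Between CIA+THz and CIA the black bars of the 7 transporter classes lie at or below 0 and the blue bars above it.

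Between CIA+THz and Ctrl, 7 members (8.05%) passed the criterion, where 7.88% of all genes did. Slc39a3, Slc8b1 and Slc25a4 were higher (3.45% of members, 4.64% of all genes and 3.44% of those at or above 5 FPKM) and Slc38a2, Slc27a4, Slc38a5 and Slc48a1 lower (4.60% of members, 3.24 and 3.75%). By an unadjusted p under 0.05 alone, 10 were higher (8.39% of all genes and 10.3% of those at or above 5 FPKM) and 17 lower (9.69 and 16.2%). None had an adjusted p under 0.05 in limma (the smallest was 0.0803), as did 0.105% of all genes. The split rests on the scaling, since with deposited FPKM 17 members passed, all higher, and all 4 lower members missed the fold threshold (log2 fold changes of -0.47, -0.41, -0.41 and -0.38 in the order named). Across all genes the deposited values gave 12.9% higher and 0.970% lower. On rescaled FPKM, 2 members passed without Ctrl 1 and 14 without Ctrl 3.

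Slc39a3 (chr10:81028538-81037426), a zinc importer, had 3.15, 4.66 and 5.56 in Ctrl, 5.86, 5.64 and 7.23 in the CIA group and 8.25, 7.01 and 7.32 in CIA+THz. Ctrl was lowest without overlap, and the log2 fold change of CIA+THz against Ctrl was 0.78 ± 0.23 (1.08 deposited, limma, adjusted p = 0.167). Slc25a4 (chr8:46206797-46211284), an ADP/ATP carrier, had 14.6, 22.3 and 17.5 in Ctrl, 29.1, 24.4 and 30.5 in the CIA group and 27.7, 31.8 and 28.3 in CIA+THz, with both arthritic groups above Ctrl (0.70 ± 0.17, or 1.01 deposited, limma, adjusted p = 0.128). Its close relative Slc25a5 had 0.18 ± 0.13 (0.49 deposited), and reads shared between such copies could have been split by the counting. Without Ctrl 1 the values were 0.55 for Slc39a3 and 0.56 for Slc25a4, without CIA+THz 2 Slc25a4 was at 0.64, and without CIA+THz 1 Slc39a3 had an unadjusted limma p of 0.0506.

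Of the lower members, Slc27a4 (chr2:29802634-29817522), a long-chain fatty acid transport protein with acyl-CoA synthetase activity, had 43.8, 44.1 and 29.2 in Ctrl, 33.5, 32.8 and 27.0 in the CIA group and 22.0, 23.8 and 24.2 in CIA+THz. Its CIA+THz libraries were the lowest of all 9 (log2 fold change against Ctrl -0.72 ± 0.17, limma, adjusted p = 0.131). Slc38a5 (chrX:8271133-8280179), whose values are given above, was at -0.72 ± 0.16 (limma, adjusted p = 0.120). Slc48a1 (chr15:97778520-97792692) had 493, 628 and 437 in Ctrl, 601, 423 and 406 in the CIA group and 281, 333 and 348 in CIA+THz, again with CIA+THz below all others (-0.69 ± 0.16, limma, adjusted p = 0.127). Slc48a1 overlaps Hdac7 on the opposite strand. Leaving out Ctrl 1 or Ctrl 2 took Slc27a4 to -0.62 and Slc38a5 to -0.66, leaving out CIA+THz 1 took Slc38a5 to -0.64 and Slc48a1 to -0.59, and without Ctrl 2 Slc48a1 was at -0.54. In total 11 members had every CIA+THz library above every Ctrl library and 18 every one below, beside 11.9 and 12.0% of all genes. Among the 6217 genes at or above 5 FPKM, 806 lay above and 1159 (18.6%) below.

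Markers of several blood cell types differed between CIA+THz and Ctrl as well. All 9 erythroid markers tested were negative (median log2 fold change -0.69, or -0.38 deposited with 1 positive) and 5 of them were lower by the criterion, in the same comparison in which the heme carrier Slc48a1 was lower. All 10 B cell markers were positive (median 0.56, or 0.87 deposited) with 4 higher by the criterion, and 8 of the 10 monocyte markers were positive (median 0.69, or 1.00 deposited) with 5 higher by it. Of the 8 plasma cell markers 7 were negative (median -0.92, or -0.67 deposited) and 3 lower by the criterion. The part of these markers in the solute carrier values was not tested.

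By class, the CIA+THz against Ctrl medians ran on rescaled FPKM from -0.45 in the organic ion, vitamin, peptide and lipid transporters, where 5 of 10 had an unadjusted p under 0.05 downward, to 0.16 in the mitochondrial carriers. With deposited FPKM these 2 medians were -0.14 and 0.46. The platelet carrier Slc6a4 and the organic ion transporter Slc22a15 were among the low ones, at -0.50 ± 0.13 and -0.67 ± 0.18 (-0.19 and -0.37 deposited). Slc35a5 was at -0.62 ± 0.14 (-0.31 deposited) with 95.5, 70.3 and 76.8 in Ctrl, 47.4, 62.4 and 62.2 in the CIA group and 50.1, 49.5 and 57.2 in CIA+THz, below Ctrl in all 6 arthritic libraries, and did not pass the fold threshold. In all, 15 members passed the criterion in at least 1 comparison, none in all 3, and 55 neither passed it nor came under an unadjusted p of 0.05 in the F test.

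**Figure D4:**
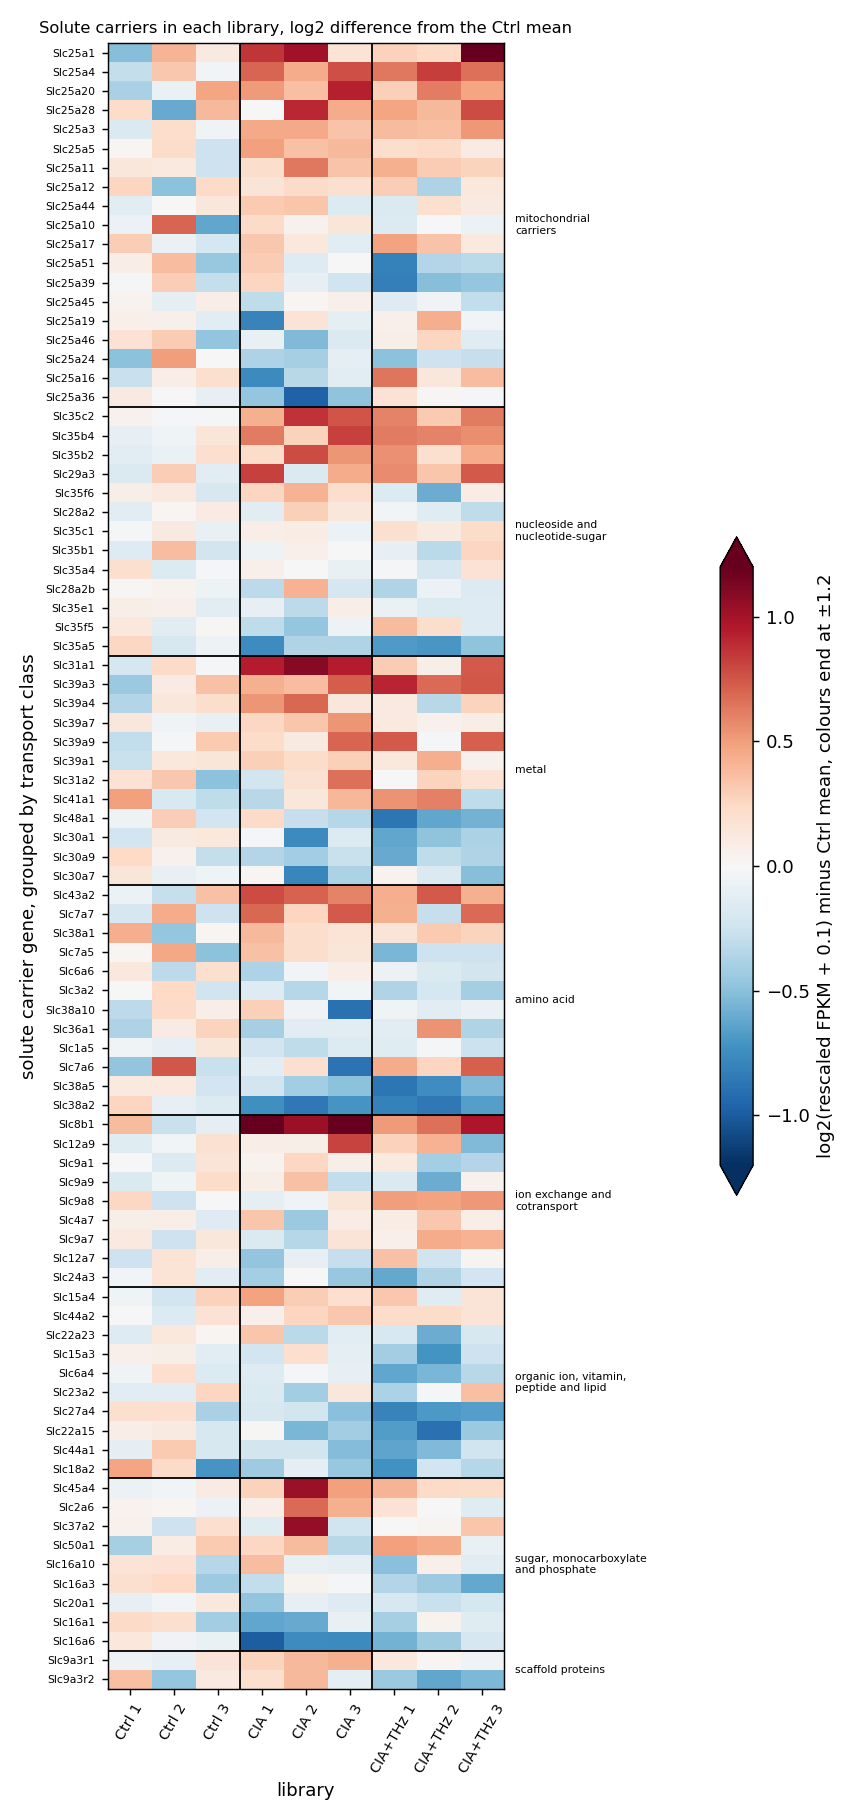
Each of 86 solute carriers (rows, grouped by transport class) in each of the 9 libraries (columns), coloured by log2(rescaled FPKM + 0.1) minus its Ctrl mean, red above and blue below, with colours ending at ±1.2. Slc8b1 and Slc31a1 are red in all 3 CIA libraries, Slc38a2 is blue in all 6 arthritic libraries, and Slc25a39 and Slc25a51 are blue in CIA+THz.

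Genes that work beside the carriers were counted by the same criterion, which 9.04% of all genes passed between CIA and Ctrl, 4.54% between CIA+THz and CIA and 7.88% between CIA+THz and Ctrl. Of 23 lysosomal amino acid sensing genes tested, Sesn3, a leucine sensing family member, was higher in CIA+THz than in CIA (log2 fold change 1.53 ± 0.43, or 1.79 deposited), Depdc5, a subunit of the complex that restrains mTORC1, was higher in CIA+THz than in Ctrl (0.81 ± 0.25, or 1.11 deposited), and none passed between CIA and Ctrl. Of 14 mitochondrial membrane partners, Timm10, an intermembrane space chaperone of carrier import, was higher in CIA (1.33 ± 0.33) and in CIA+THz (1.03 ± 0.35, or 1.31 deposited) than in Ctrl. Mpc2, a subunit of the pyruvate carrier, was lower in both (-0.94 ± 0.36 and -0.98 ± 0.30, the second -0.68 deposited). None of the 14 passed between CIA+THz and CIA, and none of 12 chaperones and regulators of carriers passed in any comparison on rescaled FPKM. No gene of these lists had an adjusted p under 0.05 in any comparison (the smallest was 0.129 in limma). Of all genes, 0.154% did between CIA and Ctrl, 0.00% between CIA+THz and CIA and 0.105% between CIA+THz and Ctrl. With deposited FPKM, Nedd4l, Rptor and Mlst8 also passed upward between CIA+THz and CIA, and Sesn3, Tsc2 and Timm22 between CIA+THz and Ctrl.

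The promoters of the members were read from RefSeq (GRCm38.p6), where 70 of the 87 had an entry, in 86 windows of 250 bases before a transcription start. The GC box GGGCGG, searched like all motifs on both strands, was in 69.8% of the members' windows, in 32.7% of all 32851 windows and in 42.6% of those of protein-coding genes. The TATA motif TATAAA was in 1.16% of the members' windows beside 12.4% of all, and only that of Slc4a7 held it. CCAAT was in 32.6% beside 33.8%, the E-box CACGTG in 10.5% beside 6.02%, the amino acid response motif TGATGNAA in 4.65% beside 3.45%, the GATA motif AGATAA in 8.14% beside 9.99% and the cAMP response motif TGACGTCA in 1.16% beside 1.55%. These shares describe letters in a window and no binding. The share among windows of genes at or above 5 FPKM was not counted, and windows of the same gene can overlap. The shares are therefore not read as a trait of solute carriers.

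The windows of 3 members past the criterion are shown because each has a single window, with at most 2 of its bases in an annotated exon. They belong to Slc38a2 (chr15:96699729-96699978, minus strand, 72% GC), lower in both arthritic groups, Slc27a4 (chr2:29802384-29802633, plus strand, 54.4% GC), lower in CIA+THz than in Ctrl, and Slc25a16 (chr10:62920383-62920632, plus strand, 60.8% GC), higher in CIA+THz than in CIA. Each runs 5′ to 3′ on the strand of the gene and ends just before the start, with GC boxes in capitals.
Slc38a2: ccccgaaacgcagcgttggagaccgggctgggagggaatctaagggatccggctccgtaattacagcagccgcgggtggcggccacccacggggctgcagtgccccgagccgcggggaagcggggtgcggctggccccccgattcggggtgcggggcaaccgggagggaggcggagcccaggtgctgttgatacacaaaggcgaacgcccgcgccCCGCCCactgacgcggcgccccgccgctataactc
Slc27a4: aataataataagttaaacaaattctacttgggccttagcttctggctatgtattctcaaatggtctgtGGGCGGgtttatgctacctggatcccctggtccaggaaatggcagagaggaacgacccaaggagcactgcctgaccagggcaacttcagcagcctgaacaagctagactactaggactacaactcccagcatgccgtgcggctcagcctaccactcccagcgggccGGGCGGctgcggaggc
Slc25a16: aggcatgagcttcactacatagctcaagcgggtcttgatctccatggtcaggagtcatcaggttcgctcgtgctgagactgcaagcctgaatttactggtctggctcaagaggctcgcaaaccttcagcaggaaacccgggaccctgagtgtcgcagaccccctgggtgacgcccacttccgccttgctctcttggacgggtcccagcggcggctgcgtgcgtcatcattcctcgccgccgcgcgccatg
The GC box of Slc38a2 starts 35 bases before the transcription start and reads on the minus strand of the gene, those of Slc27a4 start 182 and 16 bases before it, and the window of Slc25a16 holds none of the motifs searched.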

How the data were processed

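Paired-end RNA-seq libraries of mouse blood (3 Ctrl, 3 CIA, 3 CIA+THz) were analysed from the deposited table of FPKM per gene symbol. The authors made these FPKM, and the submitters' processing notes name bcl2fastq 2.0, HISAT2, StringTie, DESeq2 and the build mm10 without roles. Annotation, strand and filters are not given in the sources used here. Groups came from the sample labels.

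FPKM were divided by median-of-ratios factors over the 10312 genes above 0 in all 9 libraries, and the 12366 genes averaging at least 0.1 rescaled FPKM were fitted on log2(rescaled FPKM + 0.1), a scale that understates changes of low genes. limma 3.58.1 in R 4.3.3 was used with a mean-variance trend and Benjamini-Hochberg adjustment over all genes, as a moderated F test over 3 groups and as moderated tests on the 6 libraries of each pair. The pair criterion took an unadjusted p under 0.05 together with a log2 fold change beyond 0.67 either way. FPKM are not counts, so no count test was run, and the number of libraries limits the precision. The scripts were tested on simulated data. Gene coordinates were matched by symbol to GENCODE M21 for 86 of the 87 members (not Slc28a2b), and promoters to RefSeq GRCm38.p6.

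Named genes were all members past the pair criterion or under an adjusted p of 0.05 across 3 groups, the 10 highest members, the 2 highest of each class and the 5 on each side of the FPKM threshold, and partner genes past the criterion. A single member that this rule names is not reported here and was left out of the plots that name genes, while counts and medians over the members include it. Other members named beside a relative or partner (Slc31a2, Slc3a2, Slc38a1, Slc25a3, Slc25a5) were chosen after their values were seen. So were Slc9a8 and Slc22a15, which have no relative beside them. The members, classes and gene lists were chosen with earlier results of these data known. Alternatives were the deposited scaling, another pseudocount, other filters, no trend, a replicate block, all groups in 1 fit, leaving out each library, adjusted p and unadjusted p alone.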

Additional observations from a re-analysis of the deposited data

How the results depend on the processing

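Between CIA and Ctrl, 6 members passed the criterion, 4 higher and 2 lower. A pseudocount of 1 left 2 higher, an adjusted p under 0.05 left 0 and an unadjusted p alone gave 17 (12 higher, 5 lower). Leaving out 1 library at a time gave 4 to 10 in all (10 without Ctrl 3), 3 to 6 higher and 1 to 4 lower (1 without Ctrl 1, 4 without Ctrl 3).

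Between CIA+THz and CIA, 4 members passed, 3 higher and 1 lower. Deposited FPKM gave 7, with 7 higher and 0 lower. A pseudocount of 1 gave 1, with 1 higher and 0 lower, an adjusted p 0 and an unadjusted p alone 19 (5 higher, 14 lower). Leaving out 1 library gave 1 to 5 in all (1 without CIA+THz 1, 2 without CIA+THz 2, CIA 1 or CIA 2), 0 to 2 higher (0 without CIA+THz 1) and 0 to 3 lower (3 without CIA+THz 3, 2 without CIA 3).

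Between CIA+THz and Ctrl, 7 members passed, 3 higher and 4 lower. Deposited FPKM gave 17, with 17 higher and 0 lower. A pseudocount of 1 gave 4, with 1 higher, an adjusted p 0 and an unadjusted p alone 27 (10 higher, 17 lower). Leaving out 1 library gave 2 to 14 in all (2 without Ctrl 1, 14 without Ctrl 3), 1 to 5 higher and 1 to 9 lower. In the F test, 31 members came under an unadjusted p of 0.05, with 20 to 32 when 1 library was left out (20 without CIA+THz 1) and 3 under an adjusted p. The causes were not tested. No fold change reversed its sign under the alternatives run for the members named as passing.

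Same-numbered libraries did not deviate together (r of deviations from the group means between -0.05 and 0.03), so the numbers are taken not to pair the samples. With a replicate block, 6 members passed between CIA and Ctrl, 3 between CIA+THz and CIA and 7 between CIA+THz and Ctrl, and 27 came under an unadjusted p of 0.05 in the F test. With 3 libraries a group, no FPKM table can show small differences, and the absolute depth is unknown.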
